A study of Mus musculus with 8 samples.

Results

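The growth hormone and IGF axis was followed here through 8 genes in the hippocampus and cerebral cortex of male mice given the neonicotinoid insecticide clothianidin or vehicle. The genes were Gh, Ghr, Igf1, Igf1r, Igfbp2, Igfbp4, Igfbp5 and Igfbp6, taken by their gene symbol in the platform annotation out of 19505 genes with a symbol, and each had 1 probe set among the 22206 on the array. Gh was selected on its log2 difference between exposed and vehicle arrays, which is therefore described without a test, and the other 7 genes were chosen with their values known too. Growth hormone transcript measured 3.36 to 3.53 on the log2 scale in the 4 exposed arrays of both tissues and 4.42 to 6.45 in the 4 vehicle arrays. Of the 7 other genes, 0 passed the test for exposure in either tissue, where 1 of 14812 tested probe sets passed in each (0.00675%). Igfbp6 was lower in hippocampus than in cortex in both arms, 12.1-fold in exposed and 14-fold in vehicle mice. Igf1r and Igfbp4 passed as lower in hippocampus in vehicle mice, calls that were lost when single vehicle arrays were left out.

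Gene expression was measured on 1-colour Affymetrix arrays in 4 groups of 2 arrays, all from male mice aged 12 weeks. The groups were hippocampus and cortex of mice given clothianidin at 50 mg/kg/day for 2 weeks (Hip CLO50 and Ctx CLO50), and hippocampus and cortex of mice given 1% DMSO as vehicle (Hip Ctrl and Ctx Ctrl). Arrays carry the numbers 3 and 6 in the exposed groups and 1 and 6 in the vehicle groups. The dose is given as the no-observed-adverse-effect level. The labels do not give the strain, nor whether each array of a group is from its own mouse. The p-values therefore reflect array-to-array spread alone, and that spread may be technical. In whole tissue, fewer cells of a type and less RNA per cell cannot be told apart.

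The tissue labels were set against marker genes. Cortical neuron markers (11 of 12 listed genes had a probe set) had a summed level, on the log2 scale, of 14.62 to 15.47 in the hippocampus arrays and 17.98 to 18.30 in the cortex arrays. Hippocampal neuron markers (10 of 12) summed to 12.84 to 13.08 in hippocampus and 9.85 to 10.61 in cortex, so both labels matched their marker sums. Fezf2 and Lef1 overlapped between tissues. The cortical sum was 15.47 and 14.99 in Hip CLO50 against 14.62 and 14.70 in Hip Ctrl, without overlap, and overlapped in cortex. The hippocampal sum was higher in exposed arrays of both tissues (13.08 and 13.05 against 12.99 and 12.84, 10.61 and 10.01 against 9.94 and 9.85). The part of tissue composition in the exposure differences was not tested. A pair of vehicle arrays stood apart: Ttr, the transthyretin gene of choroid plexus epithelium, measured 19.51 in Hip Ctrl 1 and 15.41 in Ctx Ctrl 6, against 4.17 to 7.76 in the other 6 arrays. Where leaving out these arrays turned a sign or ended a call of a member, that is given beside the result or in the closing section.

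Growth hormone is a hormone made mainly by somatotrope cells of the anterior pituitary, and smaller amounts of its transcript are known in brain. It binds the growth hormone receptor, which signals through JAK2 and STAT5 and induces Igf1 in many tissues. IGF1 acts on the IGF1 receptor, a tyrosine kinase that feeds the PI3K and AKT pathway and promotes growth and survival of neurons, and IGF binding proteins carry the ligand and limit or prolong its access to the receptor.

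Gh, the ligand at the top of the axis, was the member chosen for its difference, so its exposure values are a description without a test. On the log2 scale of the array it measured 3.36 and 3.53 in Hip CLO50 3 and 6, and 4.42 and 6.00 in Hip Ctrl 1 and 6. In cortex it measured 3.50 and 3.46 in Ctx CLO50 3 and 6, and 5.02 and 6.45 in Ctx Ctrl 1 and 6. All 4 exposed arrays lay below all 4 vehicle arrays, and within each tissue the vehicle array numbered 6 was the higher one. The group means ran from Ctx Ctrl through Hip Ctrl and Ctx CLO50 to Hip CLO50, the lowest, and of these neighbours only Hip Ctrl and Ctx CLO50 did not overlap. The mean difference, exposed minus vehicle, was -1.77 on the log2 scale in hippocampus and -2.26 in cortex. Without Hip Ctrl 6 the hippocampus difference was -0.98 and without Hip Ctrl 1 it was -2.56. In cortex it was -1.54 without Ctx Ctrl 6 and -2.97 without Ctx Ctrl 1.

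The 4 exposed Gh values lay under 3.935, the lowest mean that a probe set needed to be tested, and no detection call was available for them, so no fold is given. Gh passed that filter through its vehicle arrays. Values with both exposed arrays below both vehicle arrays in both tissues were found for 617 of 14812 tested probe sets (4.17%). Of 13 listed anterior pituitary markers other than Gh, 10 had a probe set, and Prl, Lhb, Pitx1 and Tbx19 lay under 3.935 on all 8 arrays. Prl, the prolactin gene, measured 2.94 and 3.23 in Hip CLO50, 2.88 and 3.28 in Hip Ctrl, 3.35 and 3.64 in Ctx CLO50 and 3.64 and 3.72 in Ctx Ctrl. The summed level of these markers was 8.11 and 7.83 in Hip CLO50 and 8.16 and 7.96 in Hip Ctrl. In cortex it was 9.82 and 9.12 in exposed arrays and 9.30 and 9.54 in vehicle arrays, with Rbp4, which codes for a retinol carrier, the highest member on every array. These sums overlapped between exposed and vehicle arrays in both tissues. Tshb, which codes for the beta chain of thyrotropin, measured 5.09 and 4.93 in Hip CLO50 and 6.02 and 5.85 in Hip Ctrl, without overlap. In cortex Tshb measured 6.14 and 5.67 in Ctx CLO50 and 6.13 and 5.84 in Ctx Ctrl, with overlap. Ghrhr and Tbx19 went the other way in hippocampus, also without overlap, at values under 3.935. Ghrhr measured 3.14 and 3.11 in Hip CLO50 and 2.47 and 2.78 in Hip Ctrl. Tbx19 measured 3.09 and 3.16 in Hip CLO50 and 2.20 and 2.86 in Hip Ctrl. Both overlapped in cortex. In cortex Lhb and Pitx1 were lower in both exposed arrays than in both vehicle arrays, and Pomc was higher. Lhb measured 2.71 and 2.60 in Ctx CLO50 and 3.02 and 3.05 in Ctx Ctrl. Pitx1 measured 3.11 and 2.90 against 3.13 and 3.22. Pomc measured 2.91 and 3.79 in Ctx Ctrl, and 3.86 was the lower of its Ctx CLO50 values. Of all tested probe sets, 14% were lower and 16.7% higher without overlap in hippocampus, and 21.4% and 17.1% in cortex. The part of pituitary RNA in the Gh difference was not tested.

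**Figure D1:**
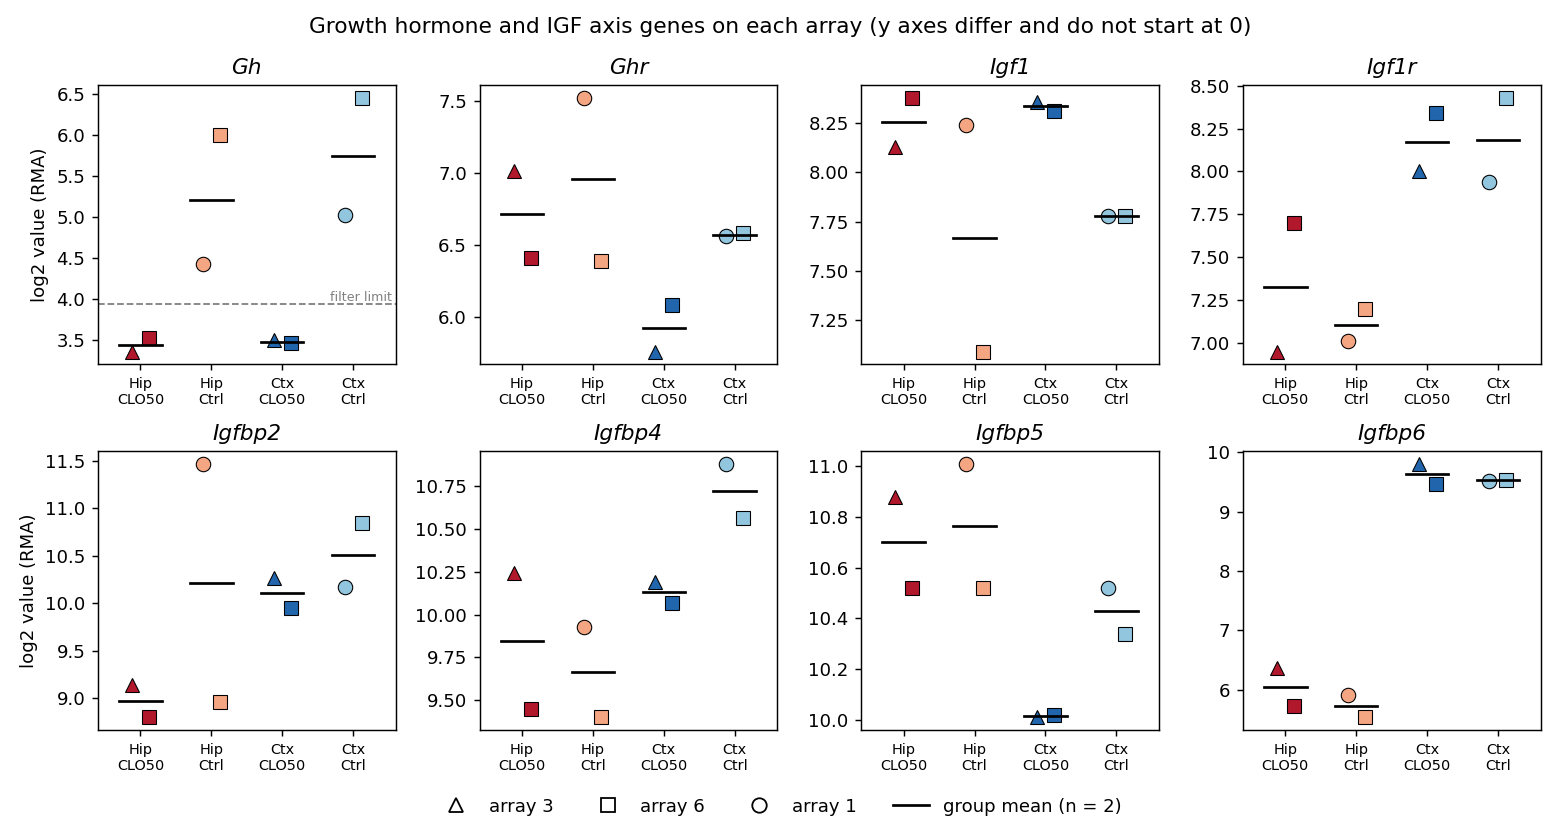
Log2 value of each of the 8 genes on each array, by group along the x axis (symbols are array numbers, lines are means of 2 arrays, and the dashed line in the Gh panel is the filter limit of 3.935). The 4 exposed Gh values lie between 3.36 and 3.53, below all vehicle values, and Igfbp6 separates hippocampus from cortex.

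Igf1, the other ligand, measured 8.13 and 8.38 in Hip CLO50 3 and 6, against 8.24 and 7.09 in Hip Ctrl 1 and 6. In cortex it measured 8.36 and 8.31 in Ctx CLO50 3 and 6, against 7.78 in each of Ctx Ctrl 1 and 6. Both exposed cortex arrays lay above both vehicle arrays, while in hippocampus the groups overlapped and the low value was that of Hip Ctrl 6. The difference was 0.56 in cortex (SE 0.34, 95% interval -0.19 to 1.30, limma adjusted p = 0.82) and 0.59 in hippocampus (SE 0.34, 95% interval -0.16 to 1.34, adjusted p = 0.90). Without Hip Ctrl 6 the hippocampus difference was 0.02, and without Hip Ctrl 1, an array high in Ttr, it was 1.17. The group means ran in the order Ctx CLO50 (8.34), Hip CLO50 (8.26), Ctx Ctrl (7.78) and Hip Ctrl (7.67), and of neighbours in this order only Hip CLO50 and Ctx Ctrl did not overlap.

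The receptor gene Ghr measured 7.01 and 6.41 in Hip CLO50 3 and 6, against 7.52 and 6.39 in Hip Ctrl 1 and 6. In cortex it measured 5.76 and 6.08 in Ctx CLO50 3 and 6, against 6.56 and 6.58 in Ctx Ctrl 1 and 6. Both exposed cortex arrays were lower, and the hippocampus groups overlapped. The difference was -0.65 in cortex (SE 0.37, 95% interval -1.47 to 0.17, adjusted p = 0.81) and -0.25 in hippocampus (SE 0.37, adjusted p = 0.98). The hippocampus value was 0.32 without Hip Ctrl 1. By mean, Hip Ctrl was the highest group, then Hip CLO50, Ctx Ctrl and Ctx CLO50, and only the last pair of neighbours did not overlap.

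Igf1r, which codes for the receptor of IGF1, measured 6.95 and 7.70 in Hip CLO50 3 and 6 and 7.01 and 7.20 in Hip Ctrl 1 and 6. It measured 8.0 and 8.34 in Ctx CLO50 3 and 6 and 7.94 and 8.43 in Ctx Ctrl 1 and 6. The exposed and vehicle arrays overlapped in both tissues, with differences of 0.22 in hippocampus (SE 0.32, 95% interval -0.47 to 0.91, adjusted p = 0.97) and -0.02 in cortex (SE 0.32, 95% interval -0.71 to 0.68, adjusted p = 1). All hippocampus arrays lay below all cortex arrays, and by mean Ctx Ctrl was highest, then Ctx CLO50, Hip CLO50 and Hip Ctrl.

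The binding protein gene Igfbp2 measured 9.14 and 8.80 in Hip CLO50 3 and 6, against 11.47 and 8.96 in Hip Ctrl 1 and 6. In cortex it measured 10.27 and 9.95 in Ctx CLO50 3 and 6, against 10.17 and 10.84 in Ctx Ctrl 1 and 6. Within each tissue the highest value was that of the vehicle array high in Ttr. The difference was -1.25 in hippocampus (SE 0.59, 95% interval -2.52 to 0.03, adjusted p = 0.85) and -0.40 in cortex (SE 0.59, 95% interval -1.67 to 0.88, adjusted p = 0.95). Without Hip Ctrl 1 the hippocampus difference was 0.01 (adjusted p = 1), and without Hip Ctrl 6 it was -2.50 (adjusted p = 0.0053), the 1 setting in which it passed. The cortex difference was -0.06 without Ctx Ctrl 6 and -0.73 without Ctx Ctrl 1. By mean, Ctx Ctrl was highest, then Hip Ctrl, Ctx CLO50 and Hip CLO50, and only Ctx CLO50 and Hip CLO50 did not overlap among neighbours.

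The vehicle arrays highest in Igfbp2 were also highest in the summed level of choroid plexus markers. Of 13 listed markers 12 had a probe set, and their summed level on the log2 scale was 9.29 and 8.99 in Hip CLO50 3 and 6 and 19.56 and 9.18 in Hip Ctrl 1 and 6. In cortex it was 8.26 and 7.94 in Ctx CLO50 3 and 6 and 7.75 and 15.43 in Ctx Ctrl 1 and 6. Ttr made nearly all of the sum in Hip Ctrl 1 (19.51) and Ctx Ctrl 6 (15.41). Among the hippocampus arrays, each of the 12 markers was highest in Hip Ctrl 1. Among the cortex arrays, Sostdc1, Aqp1, Slc4a5 and Tmem72 were not highest in Ctx Ctrl 6, while the others were. None of the 12 lay under the filter limit on all arrays, and the part of these cells in the Igfbp2 values was not tested beyond the fits without those arrays. Igf2, the second IGF ligand gene and no member, is named here after its values were seen: it measured 12.12 and 9.33 in Hip CLO50 3 and 6, 13.64 and 10.40 in Hip Ctrl 1 and 6, 11.78 and 10.75 in Ctx CLO50 3 and 6, and 10.46 and 11.39 in Ctx Ctrl 1 and 6. Meningeal and fibroblast markers (14 of 15 with a probe set, Col3a1 under the limit on all arrays) summed to 12.72 and 11.23 in Hip CLO50 and 12.91 and 12.41 in Hip Ctrl. In cortex they summed to 12.44 and 10.81 in Ctx CLO50, and 10.85 and 11.13 in Ctx Ctrl, in the same array order. Dcn was the highest of them in both Hip Ctrl arrays (11.95 and 11.94), ahead of Ogn (10.66 and 8.63). In each exposed group the array numbered 3 was higher than that numbered 6 in Igf2, in Igfbp2 and in the sum of these markers.

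**Figure D2:**
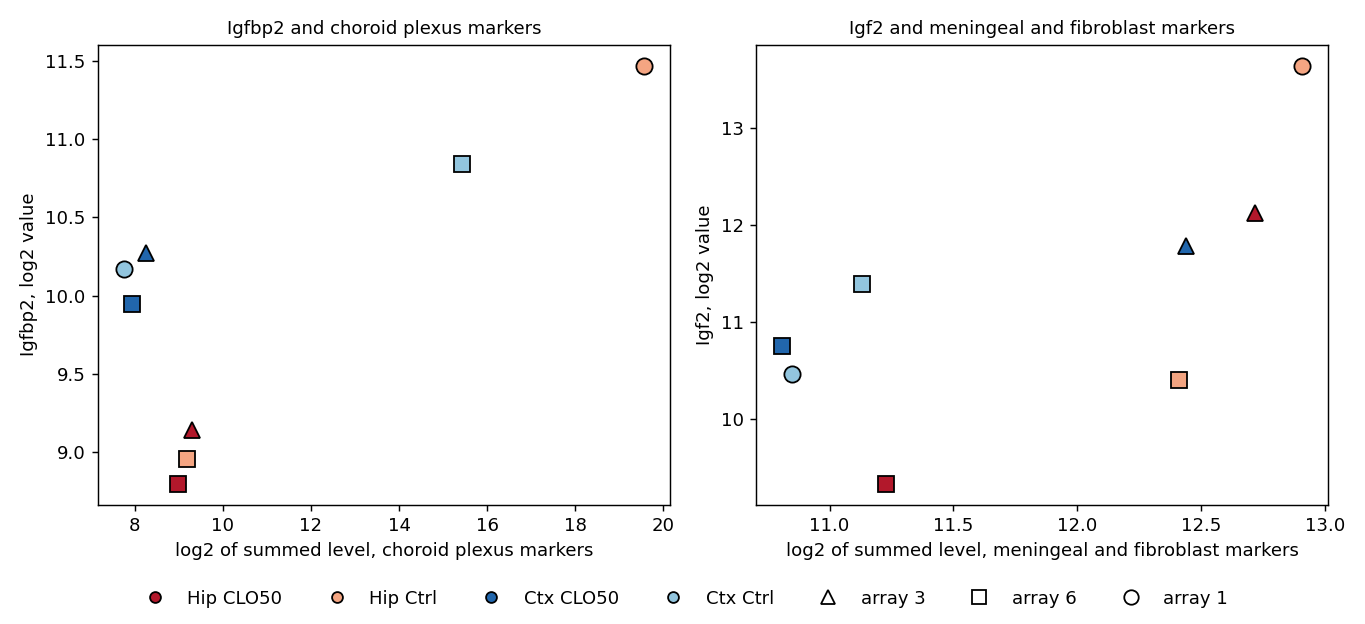
Igfbp2 (left) and Igf2 (right) on each of 8 arrays, in log2 values, against the log2 of the summed level of choroid plexus and of meningeal and fibroblast markers (colour is the group, symbol the array number). Hip Ctrl 1 is highest on both axes of both panels, and Ctx Ctrl 6 is the second array high in the choroid plexus sum, with Igfbp2 at 10.84.

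Igfbp4 codes for a carrier that is known to withhold IGF until it is cut by the protease PAPP-A. It measured 10.24 and 9.45 in Hip CLO50 3 and 6, against 9.93 and 9.40 in Hip Ctrl 1 and 6, and 10.19 and 10.07 in Ctx CLO50 3 and 6, against 10.88 and 10.56 in Ctx Ctrl 1 and 6. Both exposed cortex arrays were lower and the hippocampus arrays overlapped. The difference was -0.59 in cortex (SE 0.31, 95% interval -1.26 to 0.08, adjusted p = 0.81) and 0.18 in hippocampus (SE 0.31, adjusted p = 0.98). By mean, Ctx Ctrl was highest and did not overlap Ctx CLO50, while Ctx CLO50, Hip CLO50 and Hip Ctrl followed with overlap between neighbours.

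Igfbp5, a carrier gene next to Igfbp2 on the same chromosome with 0 annotated genes between them, measured 10.88 and 10.52 in Hip CLO50 3 and 6 and 11.01 and 10.52 in Hip Ctrl 1 and 6. In cortex it measured 10.01 and 10.02 in Ctx CLO50 3 and 6 and 10.52 and 10.34 in Ctx Ctrl 1 and 6. Both exposed cortex arrays were lower, while the hippocampus arrays overlapped. The difference was -0.42 in cortex (SE 0.26, adjusted p = 0.82) and -0.07 in hippocampus (SE 0.26, adjusted p = 0.99). By mean, Hip Ctrl was highest, then Hip CLO50 and Ctx Ctrl, each overlapping the next, and Ctx CLO50 was the lowest group for Igfbp5, whereas Hip CLO50 was the lowest for its neighbour Igfbp2.

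The carrier gene Igfbp6, whose product prefers IGF2 over IGF1, measured 6.36 and 5.72 in Hip CLO50 3 and 6 and 5.91 and 5.53 in Hip Ctrl 1 and 6. It measured 9.81 and 9.47 in Ctx CLO50 3 and 6 and 9.51 and 9.54 in Ctx Ctrl 1 and 6. The tissues were far apart, and exposed and vehicle arrays overlapped within each. The exposure difference was 0.32 in hippocampus (SE 0.30, 95% interval -0.33 to 0.97, adjusted p = 0.96) and 0.12 in cortex (SE 0.30, 95% interval -0.54 to 0.77, adjusted p = 0.98).

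Counted over the 7 members other than Gh, exposure passed the limma test for 0 in cortex and 0 in hippocampus, where 1 of 14812 probe sets passed in each tissue (0.00675%). At an unadjusted p under 0.05 the counts were 0 of 7 in each, against 6.18% of all probe sets in cortex and 5.81% in hippocampus. In cortex both exposed arrays lay below both vehicle arrays for Ghr, Igfbp4 and Igfbp5 (3 of 7, against 21.4% of all probe sets) and above them for Igf1 (1 of 7, against 17.1%). In hippocampus these counts were 0 and 0 of 7, against 14% and 16.7%. The median difference of the 7 genes was -0.40 in cortex and 0.18 in hippocampus, beside -0.03 and 0.01 over all tested probe sets. The cortex median is the value of Igfbp2, and without Ctx Ctrl 6 the median was -0.06. The hippocampus median was 0.32 without Hip Ctrl 1.

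**Figure D3:**
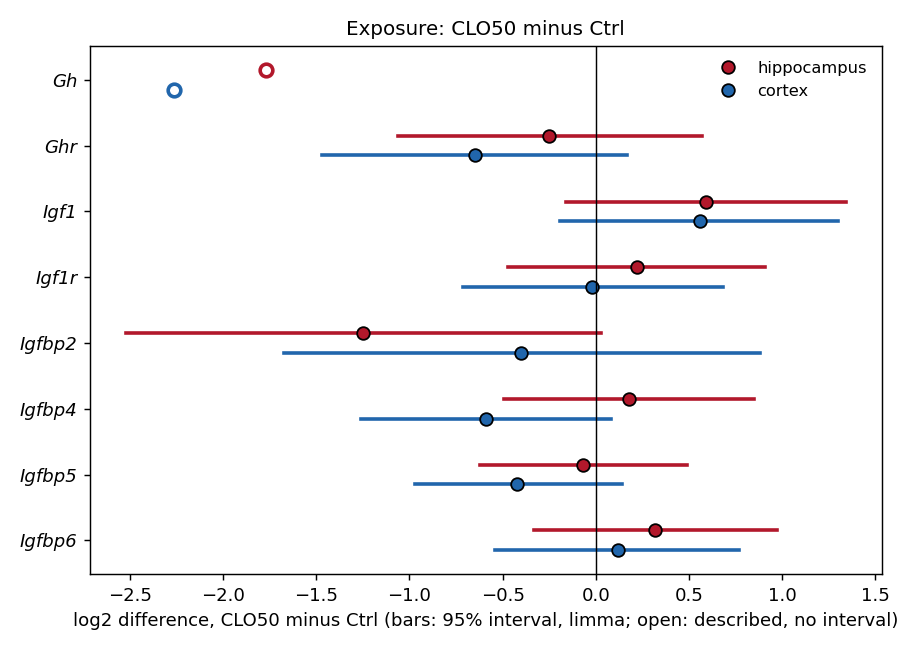
Log2 difference between exposed and vehicle arrays for each gene in hippocampus and cortex, with 95% intervals from limma (open circles, Gh, are described without an interval). The intervals of all 7 tested genes include 0 in both tissues, and Gh lies at -1.77 and -2.26.

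Whether exposure acted differently in the tissues was asked with the difference of the exposure effects, hippocampus minus cortex. Igfbp4 had the smallest p (0.77, SE 0.43, 95% interval -0.17 to 1.71, adjusted p = 1), and 0 of 7 genes passed, as did 0 of 14812 probe sets (0%). At an unadjusted p under 0.05 there were 0 of 7 members and 3.46% of all probe sets. The exposure effects were also averaged over both tissues, with 1 mean per arm and number. Same-numbered arrays of both tissues were joined in this fit, and its SE and p rest on that joining. Igfbp2 (-0.82, SE 0.29, 95% interval -1.46 to -0.18) and Igf1 (0.57, SE 0.25, 95% interval 0.03 to 1.11) had unadjusted p of 0.016 and 0.039, and each had adjusted p = 0.83. These were 2 of 7 genes at that level, against 5.97% of all probe sets, and after adjustment 0 of 7 passed, against 1 of 14812 (0.00675%). Leaving out 1 arm and number at a time gave -1.28 to -0.36 for Igfbp2 and 0.29 to 0.86 for Igf1. Without both vehicle arrays high in Ttr, the Igfbp2 exposure difference was 0.01 in hippocampus and -0.06 in cortex. Gh averaged -2.01 over both tissues, as a description.

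The tissues were then compared within each arm. Igfbp6 differed, hippocampus minus cortex, by -3.60 in exposed mice (SE 0.30, 95% interval -4.25 to -2.95, 12.1-fold, adjusted p = 1.2e-05) and by -3.81 in vehicle mice (SE 0.30, 95% interval -4.46 to -3.15, 14-fold, adjusted p = 6.1e-06), and was lower in all hippocampus arrays of both arms. Its adjusted p was at most 0.00036 in exposed and 0.00041 in vehicle mice over all alternatives. The tissue difference of Igfbp6 did not pass as different between the arms (exposed minus vehicle 0.21, SE 0.42, 95% interval -0.72 to 1.13, adjusted p = 1). Cortical neuron markers, high where Igfbp6 was high, summed to 14.62 to 15.47 in hippocampus and 17.98 to 18.30 in cortex as given above, and their part in the difference was not tested.

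Igf1r differed by -0.85 in exposed mice (SE 0.32, 95% interval -1.54 to -0.15, adjusted p = 0.099), which missed the threshold, and was lower in hippocampus in vehicle mice (-1.08, SE 0.32, 95% interval -1.77 to -0.39, adjusted p = 0.036). Igfbp4 differed by -0.29 in exposed mice (SE 0.31, 95% interval -0.95 to 0.38, adjusted p = 0.58) and was lower in hippocampus in vehicle mice (-1.06, SE 0.31, 95% interval -1.72 to -0.39, adjusted p = 0.033). The Igf1r call in vehicle mice was lost without any 1 of the 4 vehicle arrays (adjusted p 0.068 to 0.24), and that of Igfbp4 was lost without Ctx Ctrl 1 (0.20), Ctx Ctrl 6 (0.085) or Hip Ctrl 6 (0.17). Without the pair of arrays high in Ttr they had adjusted p of 0.37 and 0.063.

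Of the other members, Igfbp5 was higher in hippocampus in both exposed arrays (0.69, SE 0.26, adjusted p = 0.097) and differed by 0.34 in vehicle mice (SE 0.26, adjusted p = 0.40). Ghr differed by 0.79 in exposed mice (SE 0.37, adjusted p = 0.18) and 0.39 in vehicle mice (SE 0.37, adjusted p = 0.52). Igfbp2 was lower in both hippocampus arrays of exposed mice (-1.14, SE 0.59, adjusted p = 0.22) and differed by -0.29 in vehicle mice (SE 0.59, adjusted p = 0.78). Without both arrays high in Ttr the exposed value was the same -1.14, with adjusted p = 0.020. In vehicle mice the value was -1.55 without Hip Ctrl 1 (adjusted p = 0.012) and 0.97 without Hip Ctrl 6 (adjusted p = 0.094). Igf1 differed by -0.08 in exposed and -0.12 in vehicle mice, with adjusted p of 0.90 and 0.85. Gh differed by -0.53 in vehicle mice (SE 0.52, adjusted p = 0.53), and in exposed mice all its values in both tissues lay under the filter limit, so its test there carries no comparison of levels. In all, 1 of 8 genes passed in exposed mice and 3 of 8 in vehicle mice, each lower in hippocampus. Of all probe sets, 5.22% passed as lower, 9.26% as higher and 14.5% in either direction in exposed mice, and 7.62%, 10.1% and 17.7% in vehicle mice. Both hippocampus arrays lay above both cortex arrays for 2 of 8 genes and below them for 3 of 8 in exposed mice, against 35% and 22% of all probe sets. In vehicle mice these counts were 0 and 3 of 8, against 34.5% and 24.7%. The median difference of the 8 genes was -0.18 in exposed and -0.41 in vehicle mice, beside 0.13 and 0.10 over all tested probe sets.

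**Figure D4:**
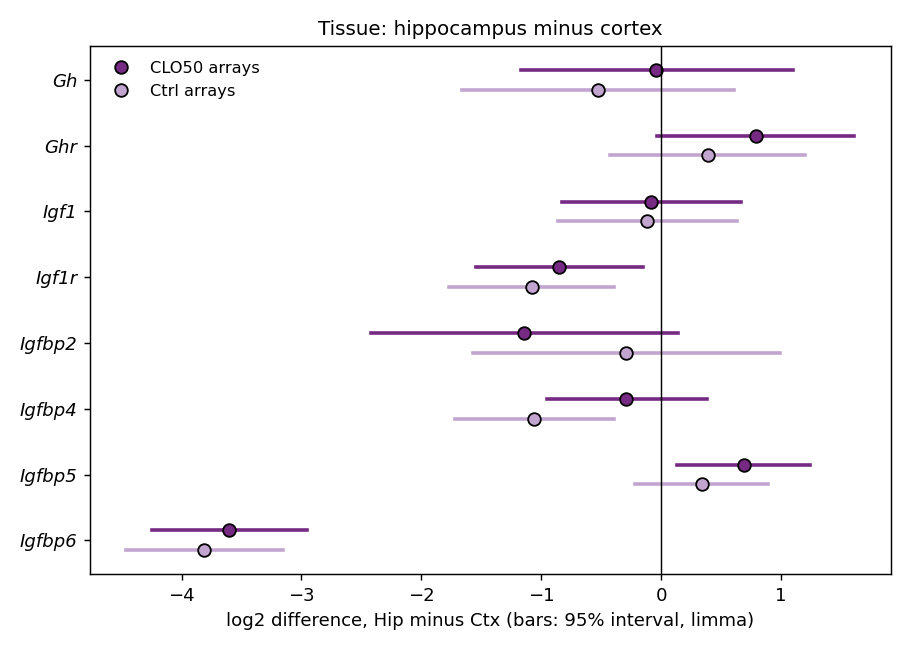
Log2 difference between hippocampus and cortex for each gene in exposed and vehicle mice, with 95% intervals from limma. Igfbp6 lies at -3.60 and -3.81, far from 0 in both arms, and Igf1r and Igfbp4 pass in vehicle mice.

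The promoters of the 3 genes that passed as lower in hippocampus are shown because these carry the tissue result. Each is the 250 bases before the annotated start (RefSeq, build GRCm38.p6), written 5′ to 3′. Capitals mark matches, on either strand, to the motif of the TATA box, which is TATAAA, or to that of the GC box element, which is GGGCGG.
Igfbp6, chr15:102143936-102144185, + strand: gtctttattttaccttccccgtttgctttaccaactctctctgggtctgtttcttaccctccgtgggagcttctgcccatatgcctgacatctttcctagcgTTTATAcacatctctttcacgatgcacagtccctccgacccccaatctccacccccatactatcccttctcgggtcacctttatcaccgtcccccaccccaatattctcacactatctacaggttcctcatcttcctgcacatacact
Igf1r, chr7:67952007-67952256, + strand: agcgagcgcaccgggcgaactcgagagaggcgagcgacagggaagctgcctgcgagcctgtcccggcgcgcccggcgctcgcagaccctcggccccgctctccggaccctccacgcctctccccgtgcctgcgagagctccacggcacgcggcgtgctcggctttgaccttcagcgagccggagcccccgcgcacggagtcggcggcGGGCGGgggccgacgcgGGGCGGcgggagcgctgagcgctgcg
Igfbp4, chr11:99040994-99041243, + strand: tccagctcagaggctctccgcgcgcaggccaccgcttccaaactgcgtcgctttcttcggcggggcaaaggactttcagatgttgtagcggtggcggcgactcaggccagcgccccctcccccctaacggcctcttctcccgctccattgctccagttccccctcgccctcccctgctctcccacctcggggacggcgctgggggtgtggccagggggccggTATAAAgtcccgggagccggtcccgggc
Igfbp4 held TATAAA beginning 28 bases before the start, and Igfbp6 held it on the opposite strand, beginning 148 bases before. Igf1r held GGGCGG beginning 43 and 26 bases before the start. GC content was 49.6% in Igfbp6, 77.6% in Igf1r and 69.2% in Igfbp4. TATAAA stood in 12.4% and GGGCGG in 32.7% of 32851 promoter entries of the same length, counting both strands. The STAT5 motif TTCNNNGAA, the Pit-1 motif TATNCAT and the cyclic AMP response element TGACGTCA, found in 7.02%, 7.92% and 1.55% of entries on either strand, were in none of these windows.

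The wider pathway was described by 3 lists of genes other than the members. For growth hormone release and receptor signalling, 22 of 24 listed genes had a probe set and 13 were tested, with Ghrh, Ghrhr, Ghrl, Ghsr, Sstr5, Prl, Socs1, Socs3 and Ptpn6 below the filter and Prlr and Pou1f1 not analysed here. For other IGF ligands, carriers and carrier proteases 8 of 14 were tested, and for IGF and insulin receptor signalling 28 of 32. Exposure passed for 0 of 13, 0 of 8 and 0 of 28 in cortex, and likewise 0, 0 and 0 in hippocampus. In each tissue only 1 of all 14812 tested probe sets passed (0.00675%). The medians were -0.08, -0.07 and 0.05 in cortex, beside -0.03 over all probe sets, and 0.10, -0.17 and 0.04 in hippocampus, beside 0.01.

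The pathway genes with the smallest p for exposure in cortex were Grb10, an adaptor that dampens insulin and IGF receptor signalling, at 0.60 (SE 0.26), Sst, the somatostatin gene, at -0.76 (SE 0.36), and Igf2r, which codes for the receptor that clears IGF2, at 0.57 (SE 0.28). All 3 had both exposed arrays on 1 side of both vehicle arrays and missed the threshold (adjusted p 0.80 to 0.81). Of all tested probe sets, 17.1% had both exposed cortex arrays above both vehicle arrays and 21.4% below them. The 3 genes were picked by p from 49 tested genes, so their separation adds no support. In hippocampus the genes with the smallest p were the protease gene Htra3 at 0.68 (SE 0.30), the translation repressor gene Eif4ebp1 at 0.59 (SE 0.30) and the forkhead factor gene Foxo6 at -0.49 (SE 0.30), with adjusted p of 0.85 to 0.91. Averaged over both tissues they were Irs2 at -0.43 (SE 0.22), Grb10 at 0.42 (SE 0.22) and Insr, the insulin receptor gene, at 0.38 (SE 0.21), with adjusted p of 0.83 to 0.84. For the difference between tissues they were Htra3 at 0.81, Eif4ebp1 at 0.78 and Jak2 at 0.59, each with adjusted p = 1.

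Between tissues, 4 of 13 growth hormone pathway genes passed in each arm, all lower in hippocampus, where 5.22% of all probe sets passed as lower in exposed mice and 7.62% in vehicle mice. Sstr2, a somatostatin receptor gene, differed by -2.48 in exposed mice (adjusted p = 0.00031) and -3.18 in vehicle mice (3.2e-05), and its ligand gene Sst by -1.22 (0.042) and -1.81 (0.0047). Sst also stands among the interneuron markers, whose summed level was 16.80 to 17.66 in hippocampus and 17.66 to 18.56 in cortex. Cck and Sst itself were the highest of these markers on every array and made most of the sum. The other markers were mixed: Pvalb, Vip and Npy were lower in all hippocampus arrays than in all cortex arrays. Gad2, Calb2 and Adarb2 were higher in all hippocampus arrays. Cish, a STAT5-induced inhibitor of cytokine receptor signalling, differed by -1.74 (0.0033) and -1.82 (0.0019), though its hippocampus means of 3.23 and 3.15 lay under the filter limit. Stat5a passed in exposed mice (-1.20, 0.025) and Stat5b in vehicle mice (-1.17, 0.046).

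Among the other carriers and proteases, 3 of 8 passed as higher in hippocampus in exposed mice and 3 of 8 in vehicle mice, where 1 more passed as lower. Of all probe sets, 9.26% passed as higher in exposed and 10.1% in vehicle mice. Igfbp3, the main carrier of circulating IGF, had means of 4.89 in exposed hippocampus and 3.75 in exposed cortex (1.14, adjusted p = 0.032), and of 5.27 in vehicle hippocampus and 3.68 in vehicle cortex (1.59, adjusted p = 0.0047), and both cortex means were under the filter limit. Tmem219, reported as an IGFBP3 receptor, differed by 1.48 (0.0048) in exposed and 1.44 (0.0046) in vehicle mice, and the serine protease gene Htra1 by 0.82 (0.022) and 0.68 (0.046). Htra3 was lower in hippocampus in vehicle mice (-1.34, 0.0097).

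In receptor signalling, 5 of 28 genes passed in exposed mice (3 higher and 2 lower in hippocampus) and 7 of 28 in vehicle mice (4 higher and 3 lower), against 14.5% and 17.7% of all probe sets. The forkhead factor gene Foxo1, a target that AKT keeps out of the nucleus, was higher in hippocampus by 2.36 in exposed mice (adjusted p = 0.00019) and 2.88 in vehicle mice (3e-05), and Foxo6 by 1.63 (0.0036) and 2.13 (0.00049), although Foxo6 lay under the filter limit on all 4 cortex arrays (means 3.11 in each arm). Grb14, an adaptor related to Grb10, was higher by 1.37 (0.020) and 1.23 (0.029). Eif4ebp1 differed by -1.38 (0.0094) and -2.16 (0.00042), with its vehicle hippocampus mean of 3.38 under that limit and its exposed one of 3.97 near it, and Pik3r1, the PI3K regulatory subunit gene, by -1.13 (0.011) and -1.03 (0.014). Igf2r was higher in hippocampus in vehicle mice (0.96, 0.035).

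**Figure D5:**
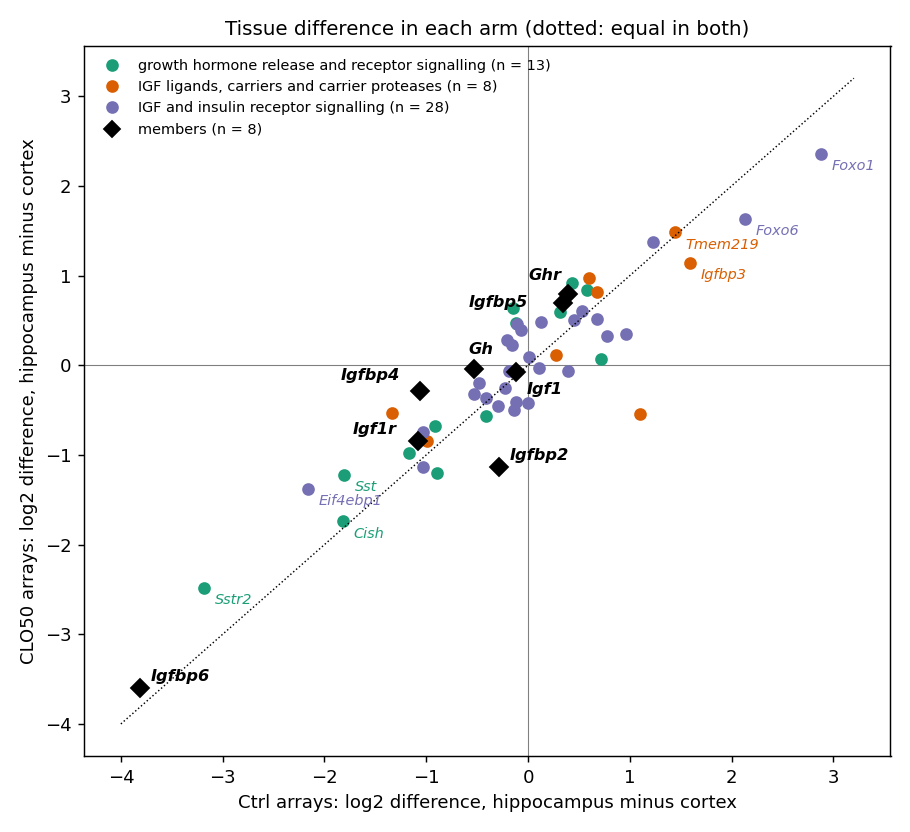
Log2 difference between hippocampus and cortex in exposed mice (y axis) against that in vehicle mice (x axis) for the 8 members (diamonds) and 49 tested genes of the 3 lists (circles). Igfbp6 is the member farthest from 0 in both arms, at -3.60 and -3.81, and Igfbp2 lies at -1.14 and -0.29.

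The genes most like each member were the 3 tested genes with the highest Pearson r of log2 values over the 8 arrays. These r come from the same 4 groups and from a search of all tested genes, so they are descriptions. For Gh they were Chp1 (0.941), Riox1 (0.940) and Stk19 (0.928). Stk19 measured 5.09 and 5.10 in Hip CLO50 3 and 6, 5.49 and 6.36 in Hip Ctrl 1 and 6, 5.34 and 5.21 in Ctx CLO50 3 and 6, and 5.48 and 6.06 in Ctx Ctrl 1 and 6. Like Gh, it was highest in the vehicle arrays numbered 6.

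For Igf1 they were Smad7 (0.981), Atp10a (0.938) and Acot3 (0.933), for Ghr Ggh (0.982), Ap2s1 (0.978) and Hdac2 (0.963), and for Igf1r Shank2 (0.975), Rnf11 (0.973) and Vinac1 (0.971). Igfbp2 was most like Atp5g3 (0.941), Lrriq1 and Perp (0.940 each), Igfbp4 like Foxo3 (0.980), Ttc9 and Vps28 (0.979 each), and Igfbp5 like Letmd1 (0.986), Uprt (0.983) and Ddx50 (0.981). Igfbp6 was most like Cx3cl1 (0.996), the neuronal chemokine gene, Gm21953 (0.995) and the neuropeptide precursor gene Vgf (0.995). Vgf measured 10.12 and 10.06 in Hip CLO50, 10.09 and 9.93 in Hip Ctrl, 11.17 and 11.23 in Ctx CLO50, and 11.21 and 11.22 in Ctx Ctrl. Among the members themselves, Ghr and Igfbp5 had the highest r (0.94) and Igf1r and Igfbp5 the lowest (-0.83), with Gh and Igf1 at -0.82.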

How the data were processed

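Per the submitters' processing notes, the authors normalized the arrays with RMA, and the deposited table holds log2 values for 22206 probe sets on 8 arrays. The base of the logarithm is unstated and was read as log2 because RMA writes log2. Values ran from 1.59 to 19.93, and the folds given here rest on that reading. The sources used here do not give the RMA version or say if the arrays were normalized as one set. Medians of the arrays were 5.21 to 5.4, and Pearson r within groups was 0.9867 to 0.9915. The number of arrays limits the precision, and no detection value was available.

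The platform annotation gives 1 gene symbol for 19572 probe sets and none for 2634. Testing covered the 14812 probe sets whose 8-array mean was at least 3.935. The model, from limma 3.58.1 under R 4.3.3, had a mean for each group and used every array (lmFit, then eBayes with trend, with 4 residual and 7.918 prior degrees of freedom). Tests were two-sided, adjusted by Benjamini-Hochberg over all tested probe sets, with a threshold of 0.05. The average over tissues was fitted to means of both tissues per arm and number, 2 per arm. The fit was tested on simulated data.

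Members, lists and alternatives were chosen with earlier results of these data known, and Gh with its exposure differences in view. From the pathway lists, genes that passed were named (at most 6 per list), or otherwise the 3 smallest p over all lists. Same-numbered arrays of both tissues were checked for pairing by the correlation of their deviations from group means. It was -0.00068 in vehicle and 0.28 in exposed arrays, so the main model did not treat them as pairs. The average over tissues and the replicate blocks did join arrays by arm and number, and their p-values rest on that joining. Marker sums are log2 of summed linear values. Promoters are RefSeq's, and 7 of the 8 members matched an entry. Alternatives were other filters, quantile and median scaling, no trend, array weights, replicate blocks, fits within a tissue and arrays left out.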

Additional observations from a re-analysis of the deposited data

How the results depend on the processing

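Alternatives gave 674 tested values for single genes beside the main ones, of which 615 kept direction and side of the threshold. Other filters, no trend, array weights, replicate blocks and fits within a tissue left the log2 difference itself unchanged. So did leaving out an array that was not in the comparison. In those settings only the adjusted p could change, so the 615 does not measure how stable the directions were. The number of members passing for exposure was 0 in cortex, for the difference between tissues and for the average under every alternative run. In hippocampus it was 0 to 1 when arrays were left out (Igfbp2 passed without Hip Ctrl 6). For the tissues it was 1 to 2 in exposed and 1 to 3 in vehicle mice when arrays were left out. Without both arrays high in Ttr it was 2 (Igfbp2 and Igfbp6) in exposed mice and 1 (Igfbp6) in vehicle mice. With a fixed replicate block it was 3 in exposed mice (Igf1r, Igfbp5 and Igfbp6). With 2 arrays a group, deviations from the group mean mirror each other. Both numbers of an arm therefore gave the same correlation across tissues (0.28 in exposed, -0.00068 in vehicle arrays). A match of both numbers is then no more evidence of pairing than a match of 1. The random block was run only for exposure within each tissue, where it changed no call. Igfbp6 passed in both arms under every alternative that was run for the tissues. Gh was not tested with the lowest 50% left out. The cause of these changes was not tested, apart from the arrays left out by construction.

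Signs turned as follows. With quantile normalization they turned for Igf1r in cortex (0.02), Igf1 in the difference between tissues (-0.02) and the tissue difference of Gh in exposed mice (0.05). Without both arrays high in Ttr they turned for exposure in cortex for Igf1r (0.23) and in hippocampus for Igfbp2 (0.01), Igfbp5 (0.18) and Ghr (0.32), in the difference for Igfbp2 (0.07), Igf1r (-0.11) and Gh (-1.02), and for the tissues in vehicle mice for Gh (0.98) and Ghr (-0.17). With 1 array left out, exposure in cortex ran from -0.26 to 0.23 for Igf1r and -0.06 to 0.29 for Igfbp6. In hippocampus it ran from -2.50 to 0.01 for Igfbp2, -0.31 to 0.18 for Igfbp5, -0.16 to 0.60 for Igf1r, -0.22 to 0.58 for Igfbp4 and -0.81 to 0.32 for Ghr. The difference ran from -2.11 to 0.41 for Igfbp2, -0.14 to 0.61 for Igf1r, -0.54 to 0.61 for Igf1, -0.30 to 1.28 for Gh, -0.12 to 0.53 for Igfbp6 and -0.16 to 0.97 for Ghr. The tissues in exposed mice ran from -0.21 to 0.05 for Igf1, -0.68 to 0.11 for Igfbp4 and -0.12 to 0.05 for Gh. In vehicle mice they ran from -1.55 to 0.97 for Igfbp2, -0.69 to 0.46 for Igf1, -1.32 to 0.27 for Gh and -0.18 to 0.95 for Ghr. The average, with 1 arm and number left out at a time (chosen after seeing the data), ran from -0.17 to 0.38 for Igf1r, -0.43 to 0.02 for Igfbp4 and -0.03 to 0.46 for Igfbp6.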
